A study of Caenorhabditis elegans with 2 samples.

Results

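The genes described here are the translation factor and aminoacyl-tRNA synthetase genes of Caenorhabditis elegans, taken by symbol: those starting eef-, eif- or iff-, and those made of a letter, ars- and a number. The rule gave 65 of 19973 protein-coding genes on the 6 nuclear chromosomes of assembly WBcel235. For each, chromatin immunoprecipitation (ChIP-seq) peaks were collected whose summit lay between 1000 bp upstream of the annotated start and the gene end. The peaks mark DNA recovered with an anti-GFP antibody that pulls down a tagged copy of ZTF-1, a zinc finger protein, from whole L2 larvae aged 28.5 hours. The worms were of strain OP207, in which an inserted fosmid transgene (wgIs207) carries ztf-1 fused to 2XTY1, eGFP and 3XFLAG tags beside unc-119, and they had been grown from larvae starved at L1 after bleaching. All values come from this 1 strain and 1 group, with 2 biological replicates and no second condition, so nothing below is a comparison of treatments. All tissues were mixed, since whole animals were used, and no control library was analysed here.

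Translation initiation factors bring the initiator tRNA and the messenger RNA to the small ribosomal subunit. In eukaryotes eIF2 carries the initiator tRNA, eIF2B reloads eIF2 with GTP, and the many-subunit eIF3 holds the assembly together. Elongation factors then move the ribosome along the message: eEF1A delivers charged tRNAs, the eEF1B subunits recharge eEF1A, eEF2 drives translocation, and eIF5A helps at slow peptide bonds. Aminoacyl-tRNA synthetases join each amino acid to its tRNA. Growing larvae make large amounts of this machinery, and many of its genes are active in most cells.

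Sequence is shown first for 3 of the 5 members whose highest summit lay upstream of the gene, among the 15 members with the highest signals, because these stretches lie near the promoter. The other 2, eif-3.C and eif-2alpha, were left out for the chromosome they lie on, not for their letters: eif-3.C held CGCG at its summit, and eif-2alpha held neither of the words marked here. The strand is that of the gene, the build is WBcel235, and each line has 101 bases centred on the summit. Capitals mark the words CGCG, and AGAGAG or its reverse complement, which were searched on both strands. The iff-2 stretch is chrII:8561397-8561497 on the minus strand, the eif-3.B stretch is chrII:14795128-14795228 on the plus strand, and the eef-1A.2 stretch is chrX:7823232-7823332 on the plus strand.
iff-2: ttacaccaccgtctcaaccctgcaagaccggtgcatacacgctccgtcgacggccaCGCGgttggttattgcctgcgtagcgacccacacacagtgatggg
eif-3.B: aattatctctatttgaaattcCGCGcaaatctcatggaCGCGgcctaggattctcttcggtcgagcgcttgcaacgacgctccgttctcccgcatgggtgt
eef-1A.2: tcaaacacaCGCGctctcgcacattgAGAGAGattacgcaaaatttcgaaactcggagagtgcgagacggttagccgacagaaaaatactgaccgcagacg
These 3 stretches held 60.4%, 52.5% and 49.5% G and C, in the order shown. Around the highest summit of each of 62 members the mean was 42.4% ± 8.72 (SD over members), against 40.1% ± 8.33 around the highest summit of each of 17312 protein-coding genes. CGCG was present at 10 of the 62 (16.1%) and at 11.2% of all genes' highest summits, and AGAGAG at 2 (3.23%) and 4.94%. A match to such a word is a description of the letters, not a binding site.

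The genes eef-1A.1 and eef-1A.2 both encode eEF1A, and their sequences bear on how peaks inside them can be read. The coding sequences have 1389 bases each, of which 1305 (94.0%) are the same, with a longest shared run of 53 bases. The strongest eef-1A.1 summit falls at coding base 667. The lines below give coding bases 617 to 717 of each gene, 5′ to 3′, with capitals at the 5 bases that differ. They are chrIII:6970863-6970963 on the minus strand and chrX:7824443-7824543 on the plus strand.
eef-1A.1: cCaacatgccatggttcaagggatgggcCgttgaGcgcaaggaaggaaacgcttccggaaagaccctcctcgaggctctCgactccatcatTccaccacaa
eef-1A.2: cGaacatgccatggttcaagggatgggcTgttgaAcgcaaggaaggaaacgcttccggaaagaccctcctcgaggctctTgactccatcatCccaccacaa
Of the 511 words of 30 bases in the eef-1A.1 peak, 78 (15.3%) occur again in the genome. The nearest eef-1A.2 summit lay 59 bp from the matching base, with a signal of 38.3 against 83.1 in eef-1A.1. How reads that map to both genes were treated is not given in the sources used here, so these 2 signals are uncertain.

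The elongation factor gene eef-2, which encodes the translocase eEF2, was the only 1 of the 65 members (1.54%) with a summit in the list of sites that recurred between the replicates. That list holds entries with an irreproducible discovery rate (IDR, which is low where a peak ranks high in both of 2 compared lists) of 0.01 or less, and 1.03% of all protein-coding genes had a summit of it. The share among members is therefore near the background. No member had a summit of the other thresholded lists, where the background was 0.741% for the pooled list, 0.100% for replicate 1 and 0.0901% for replicate 2.

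The eef-2 site was inside the gene, not at its promoter. Its summit lay in coding sequence 1858 bp downstream of the start, at position 9165389 of chromosome I, in a gene that spans 9163531 to 9166952 on the plus strand. The deposited peak signal, the authors' own measure of strength with no stated unit, was 95.6, which ranked 153rd of 87133 entries of the replicate-compared ranked list. The highest signals in the window were 42.9 in replicate 1's own ranked list and 49.2 in replicate 2's, at summits 55 bp apart. The deposited q-value was 0.318 and the IDR 0.00813, just inside the threshold, and in the pooled comparison the IDR was 0.0115, just outside. Within each replicate's own comparison the IDR was 0.511 and 0.178. The other summits inside eef-2 had signals of 55.9 near the gene end and 38.9 next to the main one, the first of which lay nearer the start of pyk-1. Around the start the signals were 19.4 at 2 bp upstream and 13.1 at 373 bp upstream, the latter nearer the start of clsp-1.

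**Figure D1:**
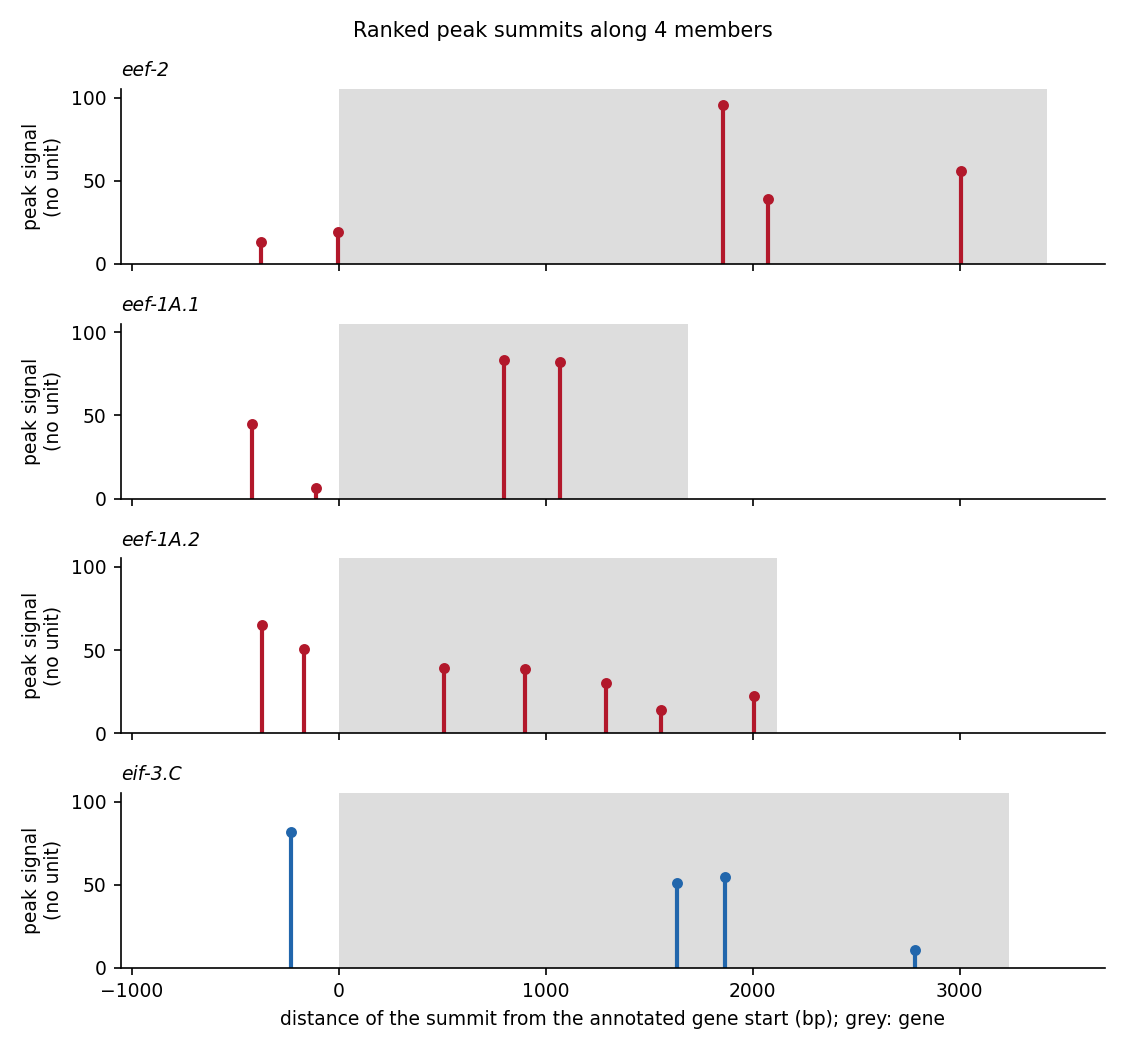
Ranked peak summits of eef-2, eef-1A.1, eef-1A.2 and eif-3.C by distance from the annotated start (bp, horizontal axis), with the peak signal (no unit, vertical axis) from the replicate-compared ranked list and the gene in grey. The highest summits of eef-2 (95.6) and eef-1A.1 (83.1) lie inside the gene, while those of eef-1A.2 (65.3) and eif-3.C (81.5) lie upstream of it.

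The eEF1A gene eef-1A.1 came next among all 65 members. In it, 2 summits inside the coding sequence had signals of 83.1 at 799 bp and 81.9 at 1067 bp, and the first had an IDR of 0.0115, just outside the threshold. Replicate 1 gave at most 51.1 there and replicate 2 gave 35.9, with the summits 2 bp apart. Upstream of eef-1A.1 the signals were 6.17 and, nearer the start of rfc-4, 44.9. In eef-1A.2 the order was the other way round, with 65.3 at 372 bp upstream and 50.5 at 166 bp upstream, against 13.9 to 39.1 at the 4 summits in its coding sequence and 22.6 in its 3′ UTR. The IDRs of the upstream summits were 0.0684 and 0.433, and those in coding sequence 0.493 to 0.769, all outside the threshold. The highest signals of eef-1A.2 in the replicates were 38.5 and 29.1, at summits 3 bp apart. The highest summits of this pair thus lay at different parts of the genes. None of the 511 words in the upstream eef-1A.2 peak occurs elsewhere in the genome. Of the other member peaks checked this way, words recurred in those of nars-2 (47 of 511, 9.2%), eif-3.B (24, 4.7%) and lars-1 (18, 3.52%).

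The iff-2 gene, for eIF5A, was level with eef-1A.2, but on unequal values. Its highest summit lay 80 bp upstream with a signal of 65.3. The ranked list gives each entry a signal from each of the 2 lists compared, and here the first paired signal was 50.3 and the second 10.4, with an IDR of 0.545. Replicate 2's highest summit in the window, with 23.9, lay 584 bp from replicate 1's, inside the coding sequence. For eef-1B.2 and eef-1G, subunits of the exchange factor of eEF1A, the highest signals were 49.1 and 47.8, in coding sequence for eef-1B.2 and in an intron for eef-1G. The second eIF5A gene, iff-1, had 34.4, and eef-1B.1 had 24.4, both at summits nearer the start of another gene. Of the 8 elongation genes in all, 4 had a summit in the top 5% of the ranked list by signal, where 16.3% of all protein-coding genes had 1.

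Initiation factor genes spanned nearly the same range without a site past the threshold. The eIF3 subunit gene eif-3.C was highest, with 81.5 at 232 bp upstream and an IDR of 0.0295, followed by eif-4A3, for the DEAD-box helicase of the exon junction complex, with 77.8 in coding sequence at 1853 bp and an IDR of 0.0299. For eif-3.C the highest signals were 34.2 in replicate 1 and 44.7 in replicate 2, at summits 26 bp apart. For eif-4A3 they were 43.4 and 33.2, at summits 9 bp apart. Replicate 1 was thus the lower in eif-3.C and the higher in eif-4A3.

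Within eIF3 all 11 genes named for its subunits by an eif-3 symbol had ranked summits, as did 86.7% of all protein-coding genes, with highest signals from 17.9 (eif-3.H) to 81.5 (eif-3.C) and a median of 52.4. The summit of eif-3.G lay in coding sequence at 448 bp with a signal of 72.8, and that of eif-3.J likewise at 363 bp with 67.3. The eif-3.B summit lay 226 bp upstream with 62.8, and its 2 replicate summits were 2 bp apart, with signals of 24.0 and 36.9. The eif-3.L summit, with 60.9, lay nearer the start of the neighbouring gene dhs-6 (1075 bp) than its own. At eif-3.E the replicates' summits lay 39 bp apart, with signals of 25.3 and 20.8, both nearer the start of another gene. The lower eIF3 genes were eif-3.K (34.0), eif-3.F (32.8), eif-3.D (29.0) and eif-3.H (17.9), and the summits of eif-3.K, eif-3.F and eif-3.H lay nearer the start of another gene. In this list the eIF3 genes thus differed among themselves in level and in where the highest summit lay. The IDRs at these summits ran from 0.0295 (eif-3.C) to 0.769 (eif-3.H and eif-3.K), all outside the threshold. The highest eif-3.H summit lay upstream here, but in an intron at 1109 bp in the pooled ranked list. The other eIF3 genes had the same highest summit in both lists. A difference in binding among the eIF3 genes is not shown by these values.

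The 3 subunit genes of eIF2 had highest signals of 71.9 (eif-2gamma, coding), 65.0 (eif-2alpha, 653 bp upstream) and 53.4 (eif-2beta, nearer another gene's start). For eif-2gamma they were 44.1 in replicate 1 and 34.0 in replicate 2, at summits 1877 bp apart. Those of eif-2alpha, 28.5 and 31.1, lay 2260 bp apart. The 5 genes of eIF2B were lower, with 26.7 to 41.0 in 4 of them and no ranked summit at eif-2Balpha. Among them eif-2Bdelta had its replicate summits at the same base, in coding sequence, and a signal of 20.8 in replicate 1, with the value of replicate 2 slightly lower.

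The initiation factor genes outside these complexes had a median of 35.2 over 6 genes, with eif-4A3 highest. The eif-6 gene, for a factor that keeps the ribosomal subunits apart, had 44.9, and its replicate values were 33.4 and 17.8 at summits 121 bp apart. Its highest summit lay nearer the start of another gene. The genes eif-1 and eif-1.A, whose products act in start codon scanning, had 32.7 and 21.0, and replicate 2's ranked list had no summit at either. The summit of eif-1.A lay nearer the start of another gene.

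Synthetase genes made up 32 of the 65 members and 3 of the 15 in the top 5% of the ranked list. By number in the name these were 2 of 21 (number 1 or 3, 9.52%) and 1 of 11 (number 2, 9.09%), against 16.3% of all genes. In replicate 1's own list the shares were 4.76% and 18.2%, against 9.69% of genes. In replicate 2's they were 9.52% and 9.09%, against 7.53%. Each share rests on 1 or 2 genes, and the lower shares in the combined list were not kept in both replicates. The leucine gene lars-1 had 65.1, near the gene end at 4747 bp and only 616 bp from the start of C16C10.1, with a second coding summit of 64.0. Its highest signals were 44.0 in replicate 1 and 25.3 in replicate 2. The glycine gene gars-1 had 61.8 in coding sequence, where the paired signals were 36.8 and 5.34, and 59.7 at 579 bp upstream, where they were 26.2 and 31.5. The asparagine gene nars-2 had 60.0 at 11843 bp from its start, with replicate values of 31.5 and 34.3 at summits 1149 bp apart. The phenylalanine subunit gene fars-1 had 51.9 in an intron, where the paired signals were 11.0 and 34.1 and the IDR 0.514. This intron summit lay nearer the start of mrpl-23. The highest replicate values of fars-1, 20.3 and 37.4, were at coding summits 426 bp apart.

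The other synthetase genes reached at most 52.7, at the isoleucine gene iars-1. Those with the next highest signals were iars-2 (49.0), the phenylalanine subunit gene fars-3 (48.4), the arginine gene rars-2 (48.0) and the alanine gene aars-2 (46.6). For rars-2 the replicates gave 42.1 and 33.1, which are among the higher replicate values of the members, but at summits 2261 bp apart. The cysteine gene cars-1 held 14 summits, the most of any member, with none above 35.9. Some of these entries overlap and share a paired signal, so they are not 14 separate sites. At the low end were fars-2 (14.8), aars-1 (17.6), the threonine gene tars-1 (21.2) and the valine gene vars-1 (21.8). The highest summits of fars-2 and vars-1 lay nearer the start of another gene. The fars-2 value depended on the list, since the pooled ranked list gave 34.4 and replicate 2's own list had a summit that ranked 3589th of 36348, both at other places in the gene, while replicate 1's list had none. Genes for the same amino acid could differ: aars-1 and aars-2 stood at 17.6 and 46.6, and lars-1 and lars-2 at 65.1 and 37.8. The IDRs at these summits were 0.769 and 0.395, and 0.0764 and 0.365, all outside the threshold. All but the lars-2 summit lay nearer the start of another gene. A difference in binding between such genes is not shown by these values. The number in a synthetase's name does not by itself give its compartment, so no split into cytosolic and mitochondrial enzymes was made.

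**Figure D2:**
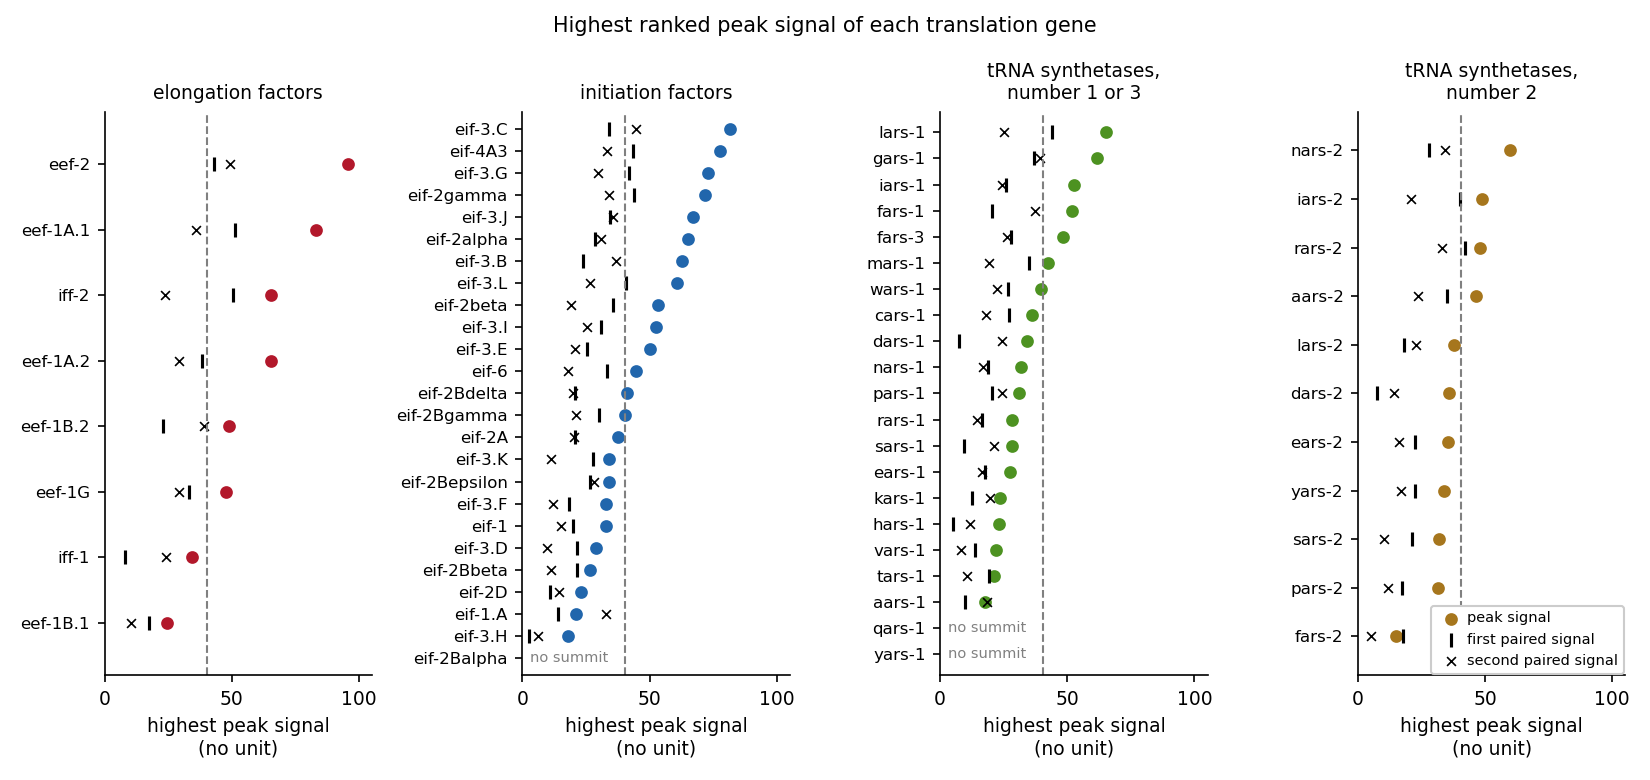
Highest peak signal in the window of each of the 65 members (circles, no unit) from the replicate-compared ranked list, by role, with the highest first (vertical ticks) and second (crosses) paired signal and the median of all protein-coding genes, 40.4, as a dashed line. The highest values are those of eef-2 (95.6), eef-1A.1 (83.1) and eif-3.C (81.5), and 3 members had no summit.

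Most members had a ranked summit, as did most genes. A ranked summit was found at 62 of 65 members (95.4%), where 86.7% of all genes had 1, and the pooled ranked list gave 62 as well against 88.3%. In the replicates' own ranked lists 50 members (76.9%) had a summit in replicate 1, against 61.5% of genes, and 48 (73.8%) in replicate 2, against 54.7%. Over all genes longer windows held more summits (Spearman's rho 0.61), and the members' windows had a median of 3475 bp against 3027 bp. Per kilobase of window there were 0.992 summits at members and 0.928 at all genes, with overlapping entries counted one by one. The median of the highest signal was 38.8 over the 62 members and 40.4 over 17312 genes, so by level the members did not stand above other genes.

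In the upper ranks of the ranked lists the members' shares lay a little above those of all genes, on counts of 3 to 15 members. Over all genes longer windows also had higher maxima (Spearman's rho 0.33, and 0.12 across the 62 members with a summit), and the members' windows were longer. Whether window length bears on these shares was not tested, and no excess at members is read from them. In the top 5% of entries by signal 15 members (23.1%) had a summit, against 16.3% of genes, and at an IDR of 0.05 or less 4 members (6.15%), against 4.24%. Those 4 were eef-2, eef-1A.1, eif-3.C and eif-4A3. By each replicate's own list the top 5% held 10 members (15.4%) against 9.69%, and 8 members (12.3%) against 7.53%. In both replicates' lists at once it held 3 members (4.62%), eef-1A.1, eef-2 and the isoleucine synthetase gene iars-2, against 2.80%. The iars-2 summits were 1161 bp apart, and the second lay upstream, nearer the start of C25A1.20. No member summit had a q-value of 0.05 or less, as against 27 entries in the whole list, and no test of these counts was made.

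By role, the median of the highest signal was 57.2 for the 8 elongation genes (eIF5A genes included), 43.0 for 24 initiation factor genes and 34.8 for 30 synthetase genes. Initiation factors were thus 8.17 above synthetases in the combined list. In replicate 1's own list the difference was 3.21, and in replicate 2's it turned to −1.47, so the order of these 2 roles was not shared by the replicates. Elongation genes were highest in both, with medians of 35.8 and 29.1, against 28.2 and 21.0 for initiation factors and 25.0 and 22.5 for synthetases. These rest on 8 and 7 genes, and the synthetase windows were longer (median 4576 bp) than those of elongation genes (3054.5 bp).

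How far the replicates gave the same place was read from their own ranked lists. A summit in both was found at 40 members, in replicate 1 alone at 10, in replicate 2 alone at 8 and in neither at 7. Replicate 1's values were the larger at 29 of these 40, with a median highest signal of 30.7 against 24.9. The same held over all genes with a summit in both, at 5642 of 8376. Spearman's rho was 0.49 across these members and 0.31 across 8376 genes, given as a description, since all genes share the 2 libraries and each value is a maximum over the window. The highest summits of the replicates lay within 250 bp of each other at 14 of the 40 (35.0%), against 36.4% of genes. Among the members in the top 5% of the combined list this was so for 7 of 14, but these were picked by a signal made from both replicates.

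**Figure D3:**
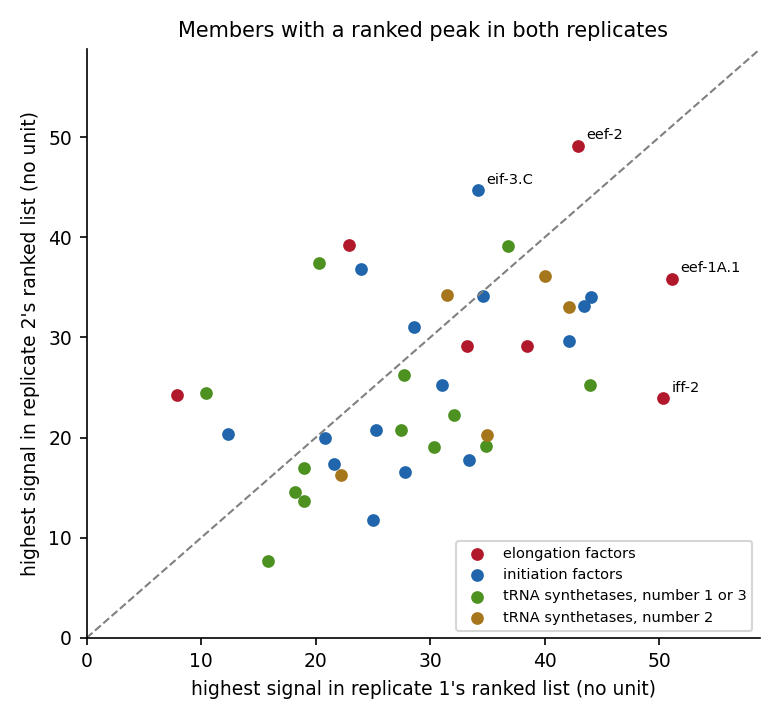
Highest peak signal (no unit) in replicate 1's ranked list (horizontal axis) and replicate 2's (vertical axis) for the 40 members with a ranked summit in both, coloured by role, with a dashed line at equal values. Of the 40, 29 lie below the line, and eef-2 (42.9 and 49.2) and eef-1A.1 (51.1 and 35.9) lie toward the upper right.

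Summits of the members lay mostly inside genes. Of 273 ranked summits in the 65 windows, 56 (20.5%) were upstream of the start, 4 (1.47%) in 5′ UTRs, 140 (51.3%) in coding sequence, 61 (22.3%) in introns and 12 (4.40%) in 3′ UTRs. Over all genes the shares were 20.8%, 1.80%, 38.2%, 35.7% and 3.51%. Members have more coding sequence in their windows, 39.1% of the length against 29.3%. Relative to that length, coding summits were 1.31 times as frequent at members and 1.30 times at all genes, values that are nearly the same. The highest summit of a member was in coding sequence at 38 of 62 (61.3%) and upstream at 12 (19.4%), against 42.4% and 27.4% of all genes' highest summits.

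**Figure D4:**
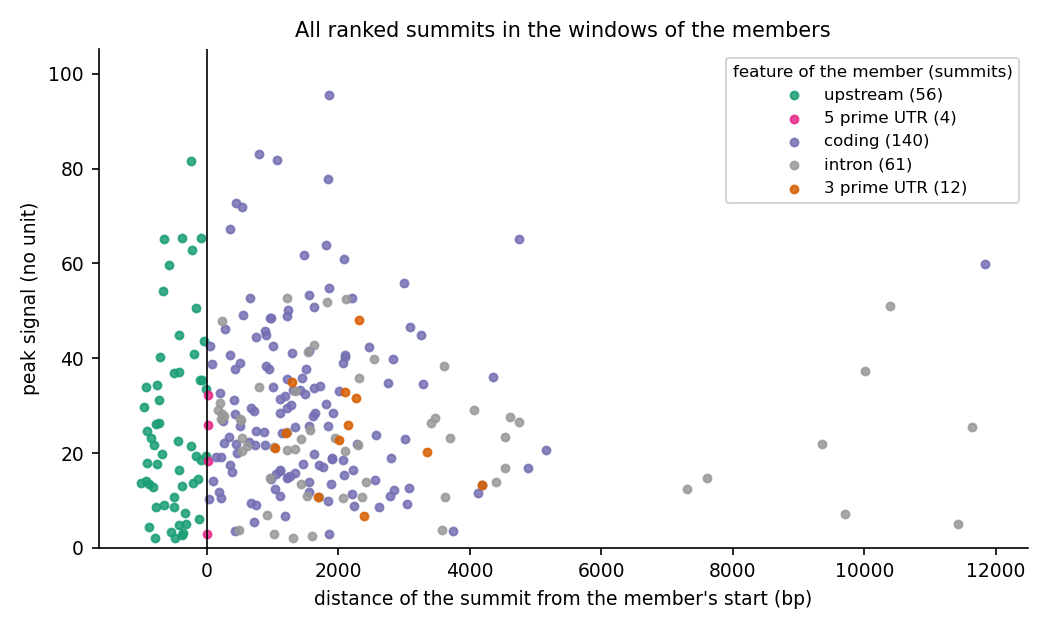
Distance of each of the 273 ranked summits from the start of its member (bp, horizontal axis) and its peak signal (no unit, vertical axis), coloured by the feature it falls in. The 3 highest points, from 81.9 to 95.6, are in coding sequence, and the highest of the 56 upstream summits, at eif-3.C, follows with 81.5.

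Many of these summits could be counted for a neighbour as well. Of the 273, 99 (36.3%) also lay in the window of another protein-coding gene, against 22.0% of summits over all genes. The member's own start was the nearest for 163 (59.7%), against 70.5%. For the highest summit of a member, its own start was the nearest at 36 of 62 (58.1%), against 76.3% of all genes' highest summits. Among the 15 members with the highest signals, another start was nearer for lars-1, eif-3.L and nars-2.

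No ranked summit was found at yars-1, qars-1 or eif-2Balpha. The tyrosine gene yars-1 has a window of 11009 bp, and the nearest summit lay 7431 bp beyond it. Of 996 genes with a window as long, 27 had no summit. The glutamine gene qars-1 differed, since both replicates' own lists had a coding summit there, with signals of 30.3 and 19.1 at places 105 bp apart, while the replicate-compared and pooled ranked lists had none. Neither replicate had a summit at yars-1 or eif-2Balpha. Of genes with a window at least as long as that of qars-1, 133 of 3557 had no summit of the replicate-compared ranked list. For the window of eif-2Balpha this was so for 1282 of 14485.

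Translation genes whose symbols the rule does not take were listed for comparison, and 23 of 24 symbols were matched. They included the eIF4F genes, poly(A)-binding proteins, release factors, the kinases that act on eIF2 and eEF2, and mitochondrial elongation factors. Of these 23, 20 (87.0%) had a ranked summit, against 86.7% of all genes, and 7 (30.4%) had 1 in the top 5% by signal, against 16.3%. The mitochondrial elongation factor gene tufm-1 had a summit of the replicate-compared thresholded list, with a signal of 83.9 in coding sequence at 654 bp and highest replicate values in its window of 45.8 and 47.5. The poly(A)-binding protein gene pab-2 had a summit of the pooled thresholded list, with 98.8 at 358 bp upstream and highest replicate values of 39.4 and 50.1. The gcn-1 gene, for an activator of the eIF2 kinase GCN2, had 78.6, in a window with 53 summits. For scale, 6 of 81 ribosomal protein genes (7.41%) and 0 of 33 proteasome genes had a summit of the replicate-compared thresholded list, beside 1 of the 65 members and 1.03% of all genes.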

How the data were processed

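The authors deposited 8 peak lists on ce11 per the text notes beside the files: 4 ranked and 4 thresholded lists. By their values, the thresholded lists hold the entries of the ranked lists at an IDR of 0.01 or less. Which caller and aligner made them is not given in the sources used here. The deposited signal of each peak has no stated unit, and the −log10 q-value and the −log10 IDR score were read from the deposited columns, which have no header. The 6 paired-signal columns of the other ranked lists were not used. Ranks are within a list. Read counts were not used here, so depth is unknown and no interval on a signal can be given. In the replicate-compared ranked list, the first paired signal carried an entry of replicate 1's ranked list at 53.9% of entries and none of replicate 2's; the second carried one of replicate 2's at 44.9% and none of replicate 1's. Several entries can share a paired peak, and entries can overlap: the 87133 entries of that list merge into 43349 regions. Counts of summits are therefore not counts of separate sites.

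Gene models came from Ensembl release 115 (WBcel235, the sequence of ce11) and bases from the RefSeq copy; all peak ends lay inside the chromosomes. Feature order was coding, 5′ UTR, 3′ UTR, intron. Named genes are members with a thresholded summit, the 15 highest by signal, the 5 highest by each paired signal, members without a summit (up to 5), and of the other translation genes those with a thresholded summit and the 3 highest; others were named after their values were seen. Members and lists were chosen with earlier results of these data known. With 1 group no test was made. Python 3.11.15, pandas 2.3.3 and scipy 1.17.1 were used, and the assignment of summits was tested on simulated data. Alternatives were other windows, thresholds, lists, and each replicate alone.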

Additional observations from a re-analysis of the deposited data

How the results depend on the processing

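The count of members with a thresholded summit, 1, was 0 with the window ended 500 bp downstream of the start, at IDR 0.001 and in the pooled list, 4 at IDR 0.05, and 0 to 0 without a replicate. It was 1 in the other 4 alternatives. The 0 at the start window follows from the place of the eef-2 summit. Members with a ranked summit numbered 48 to 63 in 8 alternatives. The median highest signal, 38.8, was 46.6 with 2 kb upstream and 29.7 in the window at the start, 24.3 to 27.8 in a replicate's own list, and 23.5 and 21.1 for the first and second paired signals. The excess of initiation factors over synthetases, 8.17, was 12.6 with 2 kb upstream, 13.8 in the window at the start, and 3.21 to −1.47 without a replicate, where replicate 2 alone reversed it; the cause was not tested. The upstream share of summits, 20.5%, was 12.1%, 33.6% and 61.5% with 500 bp upstream, 2 kb upstream and the window at the start, as their construction brings. Other translation genes with a ranked summit, 20, numbered 16 to 23 in 8 alternatives. Alternatives for roles, positions, other translation genes and the top 5% in single replicates, and merging for the signal, were chosen after seeing the data. No paired analysis was possible because there is 1 group.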
